A study of Homo sapiens with 2 samples.

Results

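The epithelial polarity complex genes were taken as 9 listed genes, CRB3 and PATJ of the Crumbs complex, PARD3, PARD6B and PRKCI of the Par complex, and SCRIB, LLGL1, LLGL2 and DLG1 of the Scribble complex. Every ATAC-seq peak in the body of a gene or within 20 kb of any of its GENCODE transcript starts was assigned to it. From No gRNA this took 58 of 74757 peaks and from All gRNA 61 of 75217, over 1.86 Mb of hg38. SUM159 is an established triple negative breast cancer line used as a mesenchymal, claudin-low model. Both groups carried pLV-KRAB, a lentiviral vector that encodes a Cas9 that cannot cut DNA, joined to the repressor domain KRAB, and were selected with puromycin. No gRNA cells had no targeting guide (empty vector control), and All gRNA cells had 4 guides to the promoter of ZEB1, the transcriptional repressor of epithelial genes. The comparison asked how open chromatin at the polarity genes differed when ZEB1 was targeted. With 1 library a group there is no test and no p-value. The 95% intervals of pileups and ratios cover counting error only, and those of shares treat peaks as independent draws. In a bulk library, a site open in more cells and a site more open in each cell cannot be told apart.

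Epithelial cells divide their surface into an apical and a basolateral face. The Crumbs complex (a small transmembrane protein such as CRB3 with the scaffolds PALS1 and PATJ) and the Par complex (the scaffolds PARD3 and PARD6B with the atypical protein kinase C that PRKCI encodes) mark the apical side and the tight junction, and the Scribble complex (the scaffolds SCRIB and DLG1 with LLGL1 or LLGL2) marks the basolateral side. The complexes restrain each other, in part through phosphorylation of the LLGL proteins by atypical protein kinase C. Polarity is lost in the epithelial to mesenchymal transition. ZEB1 is known to bind the E-box CAGGTG, read on the opposite strand as CACCTG, and CRB3, PATJ and LLGL2 are among the polarity genes it has been described to repress in carcinoma cells.

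Median peak width was 340 bp in the No gRNA list and 317 bp in the All gRNA list, and the depth recovered from the lists was 0.743 times as high in All gRNA. Peak height is given as the summit pileup, the number of read ends in the window at the highest point, recovered from the deposited fold and −log10 p. Ratios are All gRNA over No gRNA after scaling for depth. At the canonical ZEB1 start the No gRNA library had 2 peaks within 1 kb, with pileups of 25 and 27, and the All gRNA library had 0. Of 8 mesenchymal marker genes, 8 had a start-site peak in both lists. Of 8 epithelial marker genes, EPCAM had one in both lists, CLDN4 in the No gRNA list alone, CLDN7 in the All gRNA list alone (none of them at the canonical start), and CDH1, CLDN3, ESRP1, GRHL2 and OVOL1 in neither. Start-site peaks were found at 0 of 4 blood genes and at 1 of 3 endothelial genes (PECAM1, at an internal start). The defining mesenchymal markers were thus open in both libraries.

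Summed by complex, peaks covered more length at the Crumbs and Par genes and less at the Scribble genes in All gRNA. Within each complex, single genes went both ways. Over all 9 genes peaks covered 23785 bp in No gRNA and 23266 bp in All gRNA, which is 97.8%. All peaks of the lists covered 30.3 Mb in No gRNA and 28.2 Mb in All gRNA. Taken gene by gene, the median was 89.9% over 17509 protein-coding genes with No gRNA coverage. That median weighs each gene alike and is not the same measure as the 97.8%, which is a ratio of sums. The total of the 9 genes depended on the peaks taken: it was 107.5% in the gene bodies alone (16977 and 18257 bp) and 75.3% where both lists were held to a −log10 q of 10 or more (19124 and 14399 bp). Crumbs complex genes went from 7 peaks and 3546 bp to 9 peaks and 3744 bp (105.6%). Par complex genes went from 38 peaks and 13412 bp to 42 peaks and 14175 bp (105.7%). In these sums PATJ went from 2532 to 3004 bp and PARD3 from 9311 to 10037 bp, so each rise rested largely on 1 gene. Scribble complex genes went from 13 peaks and 6827 bp to 10 peaks and 5347 bp (78.3%), of which DLG1 went from 2990 to 1734 bp. The sums by complex were not repeated for the gene bodies alone or at the −log10 q limit. PARD3 alone held 29 No gRNA and 32 All gRNA peaks, and without it the total was 14474 bp in No gRNA and 13229 bp in All gRNA (91.4%). Coverage was lower in All gRNA at 5 genes (CRB3, PRKCI, SCRIB, LLGL2 and DLG1) and higher at 4 (PATJ, PARD3, PARD6B and LLGL1). Over all 18032 protein-coding genes with a peak, coverage was lower at 66.8% and higher at 32.9%.

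Peaks could be paired 1 to 1 between the lists at 46 places. Height was lower in All gRNA at 23 of them and higher at 23, with a median log2 ratio of −0.01, while the median over all 48041 such pairs was −0.11 and 58.1% of them lay below 1. All gRNA peaks were narrower in 26 pairs and wider in 20, with a median difference of −41 bp, against −23 bp and 60.7% narrower over all pairs. A pair was called when its ratio lay beyond 2-fold with an interval that excluded 1. By this rule 2 pairs were higher in All gRNA, at LLGL2 and PRKCI, and 1 was lower, at DLG1, where 2.44% of all pairs were called higher and 3.27% lower. The interval excluded 1, whatever the size of the ratio, in 5 of the 46 pairs and in 12.3% of all pairs.

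**Figure D1:**
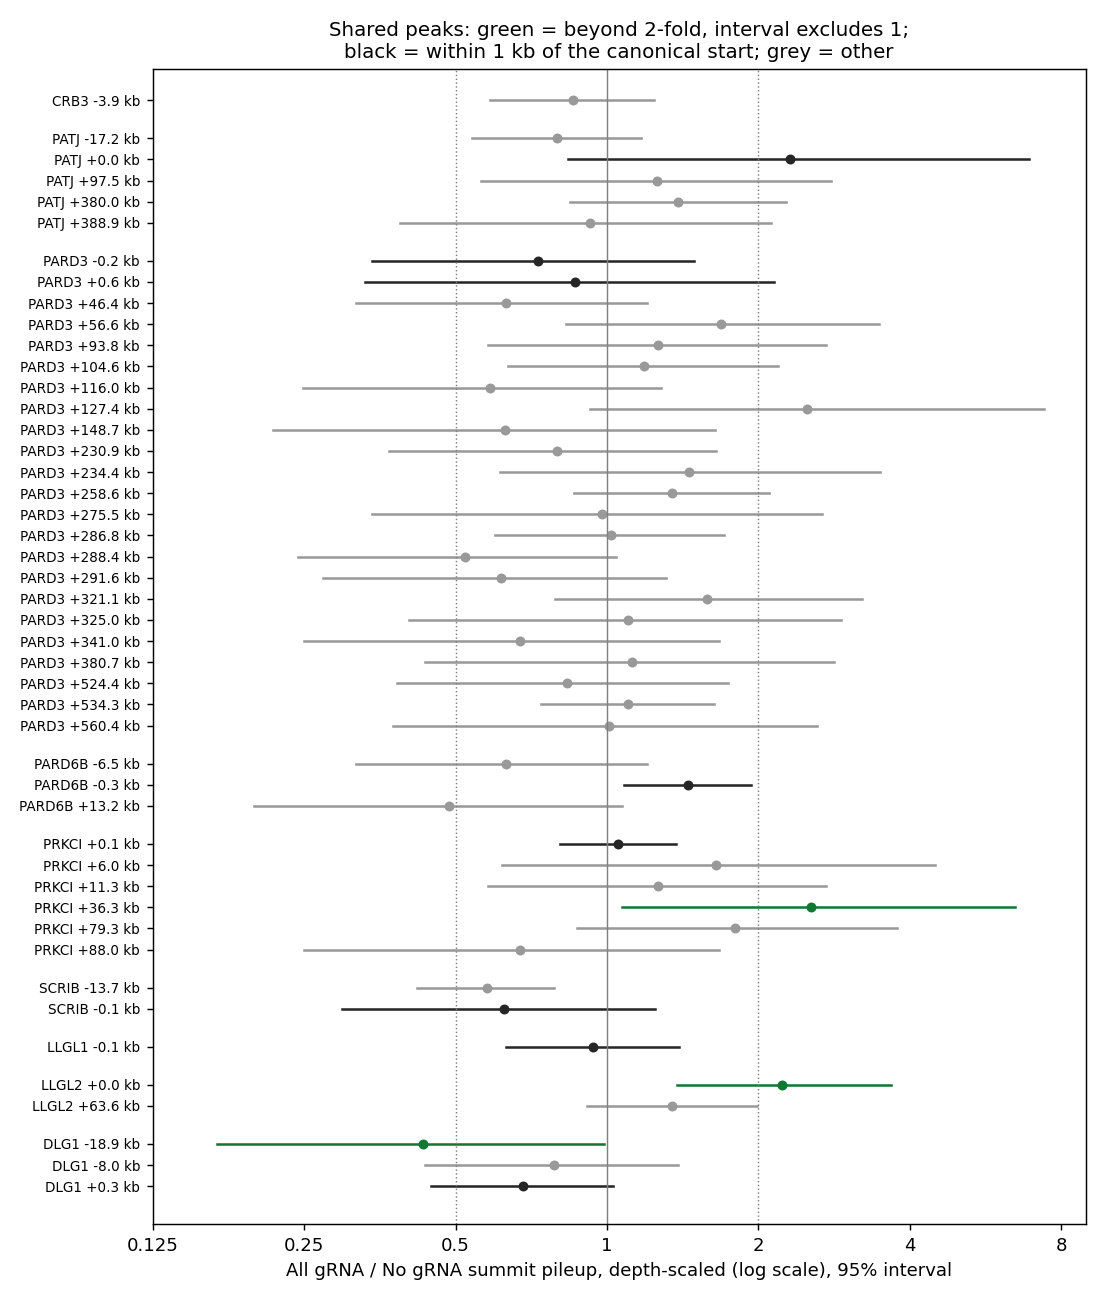
Depth-scaled ratio of summit pileup, All gRNA over No gRNA, on a log axis for the 46 paired peaks, with 95% counting intervals; labels give the distance from the canonical start. The 23 PARD3 pairs lie on both sides of 1 with none called, and the called pairs (green) are those of LLGL2 at the start, PRKCI 36310 bp after it and DLG1 18898 bp before it.

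Within 1 kb of an annotated start, 8 of the 9 genes had a peak in both libraries, CRB3 had one in neither, and none had one in a single library. Among 19962 protein-coding genes, 65.4% had a start-site peak in both, 2.61% in the No gRNA list alone, 1.82% in the All gRNA list alone and 30.1% in neither. Over the 8 start-site pairs 4 ratios were above 1 (PATJ, PARD6B, PRKCI and LLGL2) and 4 below (PARD3, SCRIB, LLGL1 and DLG1), with a median log2 ratio of −0.01, where the median over 9723 start-site pairs was −0.22. LLGL2 was the only one called, and 0.576% of the 9723 pairs were called higher.

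**Figure D2:**
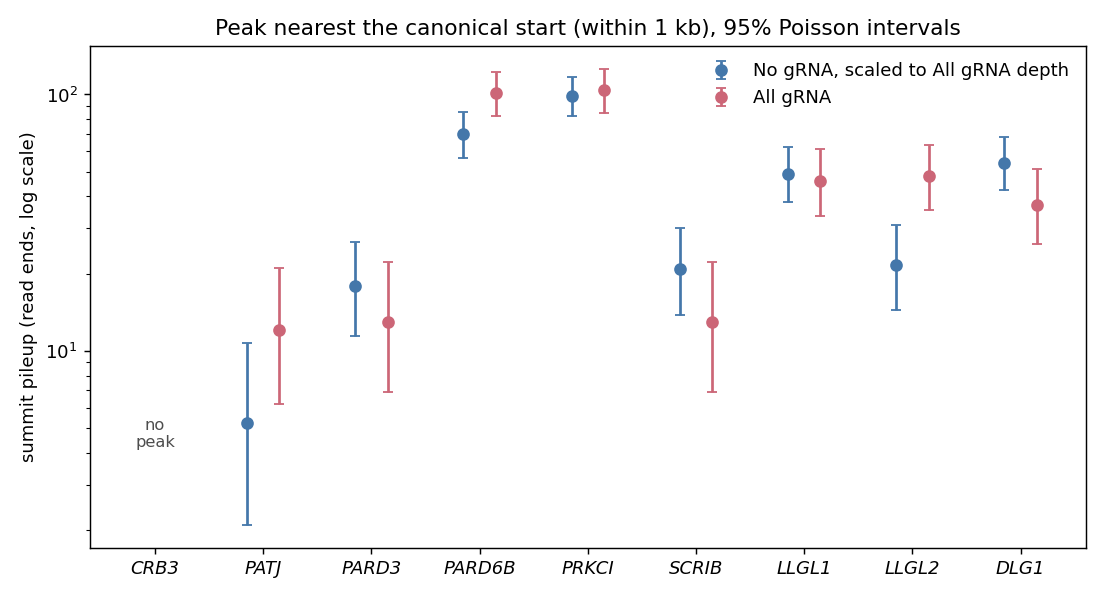
Summit pileup (read ends, log axis) of the peak nearest the canonical start of each gene, with No gRNA (blue) scaled to the All gRNA depth and All gRNA (red) as counted; bars are 95% Poisson intervals. The intervals of LLGL2 do not overlap, those of the other genes with a peak overlap, and CRB3 has no peak within 1 kb.

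In the Crumbs complex, CRB3 (ENSG00000130545.16, chromosome 19, 6463777 to 6467221, plus strand, 4 starts) encodes the epithelial Crumbs protein. No peak of either list lay in its body or within 1 kb of a start. Its strongest peak lay 3876 bp before the canonical start with a pileup of 77 with No gRNA and 49 with All gRNA, a ratio of 0.856 (0.586 to 1.24). A weaker peak 4376 bp before the start, with a pileup of 24 and a −log10 q of 9.47, was in No gRNA only and ended 108 bp from the All gRNA peak. Both lay next to the start of another gene, SLC25A23, at distances of 603 and 103 bp. Covered length was 1014 bp in No gRNA and 740 bp in All gRNA (73.0%), none of it at CRB3 itself. The RefSeq promoter of CRB3 was dense in E-boxes, with CAGGTG or CACCTG 228, 208, 147, 89 and 60 bases before the start. That start is the canonical one at 6464271, so all of these sites lay inside the annotated gene, which begins at 6463777. The sites at 147 and 89 bases lay in annotated UTR sequence, and the one at 60 did not. Of 35116 RefSeq promoters, read over the 250 bases before the start and on both strands, 17.5% held at least 1 such site and 0.074% at least 5. The 3 sites nearest the start are shown as 20 bases each of GRCh38.p14, 5′ to 3′ on the plus strand, with the E-box in capitals, because they lie where neither library had a peak:
CRB3, chr19:6464117-6464136: cccgttaCAGGTGcgcccac
CRB3, chr19:6464175-6464194: cgaggctCAGGTGcacaagc
CRB3, chr19:6464204-6464223: gctctccCAGGTGagtgact

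PATJ (ENSG00000132849.22, chromosome 1, 61742477 to 62178675, plus strand, 13 starts) encodes the multi-PDZ scaffold that links the Crumbs complex to the tight junction. Its start-site peak had a pileup of 7 with No gRNA and 12 with All gRNA. That gives the largest start-site ratio of the 9 genes, 2.31, with an interval of 0.837 to 6.92 that includes 1. The peak was weak in both lists, with a −log10 q of 3.70 and 8.13, and its width went from 447 to 476 bp. The strongest PATJ peak lay 17250 bp before the start, 86 bp from the start of TM2D1, with pileups of 76 and 45 and a ratio of 0.797 (0.538 to 1.17). The 3 intronic pairs had ratios from 0.925 to 1.38. A further 3 intronic peaks, with pileups of 8, 8 and 5, were in All gRNA only, and the covered length went from 2532 to 3004 bp (118.6%). The RefSeq promoter of PATJ held 2 E-boxes, a number reached by 2.53% of promoters. The CACCTG 171 bases before the canonical start lay outside the start-site peaks, and the CAGGTG 30 bases before it lay inside the peak of each list. The 247 bases up to the first annotated start are shown with both sites in capitals (GRCh38.p14, plus strand):
PATJ, chr1:61742230-61742476: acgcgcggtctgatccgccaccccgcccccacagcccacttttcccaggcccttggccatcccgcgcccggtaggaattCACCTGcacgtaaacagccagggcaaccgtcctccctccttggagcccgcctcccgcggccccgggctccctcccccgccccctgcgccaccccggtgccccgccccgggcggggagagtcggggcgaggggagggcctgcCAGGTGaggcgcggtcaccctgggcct

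In the Par complex, PRKCI (ENSG00000163558.13, chromosome 3, 170222424 to 170305977, plus strand, 7 starts) had 6 peaks in each list, all of them shared. Its start-site peak was the highest start-site peak of the 9 genes, with a pileup of 133 with No gRNA and 104 with All gRNA and a ratio of 1.05 (0.806 to 1.37). The peak was narrower in All gRNA, at 629 against 810 bp. An intronic peak 36310 bp after the start had a pileup of 9 with No gRNA and 17 with All gRNA, and its width went from 222 to 355 bp. It was called higher, with a ratio of 2.54 (1.07 to 6.47), on few read ends. Of the other 3 intronic pairs the ratios were 1.64, 1.26 and 1.79, each with an interval that included 1, and the pair downstream of the gene had 0.673. The RefSeq promoter of PRKCI held neither CAGGTG nor CAGCTG. The bases around the All gRNA summit of the called peak held no CAGGTG and 1 TGACTCA, the site of AP-1 factors, and are shown on the plus strand of hg38 with that site in capitals:
PRKCI, chr3:170258614-170258814: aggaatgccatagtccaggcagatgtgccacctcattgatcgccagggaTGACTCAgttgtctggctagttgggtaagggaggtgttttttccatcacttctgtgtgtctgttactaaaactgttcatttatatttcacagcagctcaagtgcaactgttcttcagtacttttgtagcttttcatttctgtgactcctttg

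PARD6B (ENSG00000124171.9, chromosome 20, 50731580 to 50756795, plus strand, 2 starts) encodes an adaptor that holds the kinase to PARD3. Its start-site peak had a pileup of 94 with No gRNA and 101 with All gRNA, and was the only start-site peak besides LLGL2 whose interval lay above 1, with a ratio of 1.45 (1.08 to 1.94). It was not called, being within 2-fold, and it was narrower in All gRNA (667 against 754 bp). The other pairs went the opposite way. The peak 6461 bp before the start had pileups of 32 and 15 (0.631, 0.317 to 1.20), and the intronic peak 13158 bp after it had 25 and 9 (0.484, 0.199 to 1.07). An intronic peak 10665 bp after the start, with a pileup of 8, was in All gRNA only.

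PARD3 (ENSG00000148498.17, chromosome 10, 34109560 to 34815325, minus strand, 6 starts) encodes the scaffold that places the Par complex at tight junctions. It lies on the same chromosome as the guide sites, with 3.5 Mb between its canonical start and that of ZEB1. At its start a peak had a pileup of 24 with No gRNA and 13 with All gRNA, with a ratio of 0.729 (0.341 to 1.49) and widths of 354 and 721 bp. A second peak 575 bp into the gene had 14 and 9 (0.865, 0.330 to 2.15). A peak in All gRNA only, with a pileup of 10, lay 1073 bp into the gene. The start region was thus open in both libraries. Along the gene, 23 pairs had ratios from 0.521 to 2.50, of which 11 were below and 12 above 1, with a median log2 ratio of 0.01 and none called. Its strongest peak, in an intron 534334 bp after the start, had pileups of 60 and 49 (1.10, 0.738 to 1.63). PARD3 held 6 of the 11 No gRNA only peaks and 9 of the 13 All gRNA only peaks of the 9 genes, including the 5 with a −log10 q of at least 10. The strongest in No gRNA only lay in an intron 71219 bp after the start, with a pileup of 18 and a −log10 q of 15.9. The strongest in All gRNA only lay in an intron 526410 bp after the start, with a pileup of 20 and a −log10 q of 18.0. At the depth of the other library these would be 13.4 and 26.9, against lowest callable pileups of 5 and 7. The other 3 such peaks were in No gRNA only at 310488 bp after and 7141 bp before the start (pileups 13 and 14) and in All gRNA only at 118582 bp after it (14). The bases around the summits of the strongest peak of each kind are shown on the plus strand of hg38, with CAGGTG and TGACTCA in capitals where present. The All gRNA only peak held 1 of each, and the No gRNA only peak held neither:
PARD3 All gRNA only, chr10:34288786-34288986: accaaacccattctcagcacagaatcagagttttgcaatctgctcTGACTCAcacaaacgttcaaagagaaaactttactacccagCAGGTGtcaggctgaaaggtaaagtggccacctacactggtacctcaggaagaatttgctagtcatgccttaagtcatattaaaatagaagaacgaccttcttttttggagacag
PARD3 No gRNA only, chr10:34743977-34744177: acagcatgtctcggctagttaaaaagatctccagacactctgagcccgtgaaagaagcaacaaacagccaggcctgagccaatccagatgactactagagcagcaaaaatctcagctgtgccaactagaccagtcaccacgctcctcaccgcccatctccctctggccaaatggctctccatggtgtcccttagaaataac

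**Figure D3:**
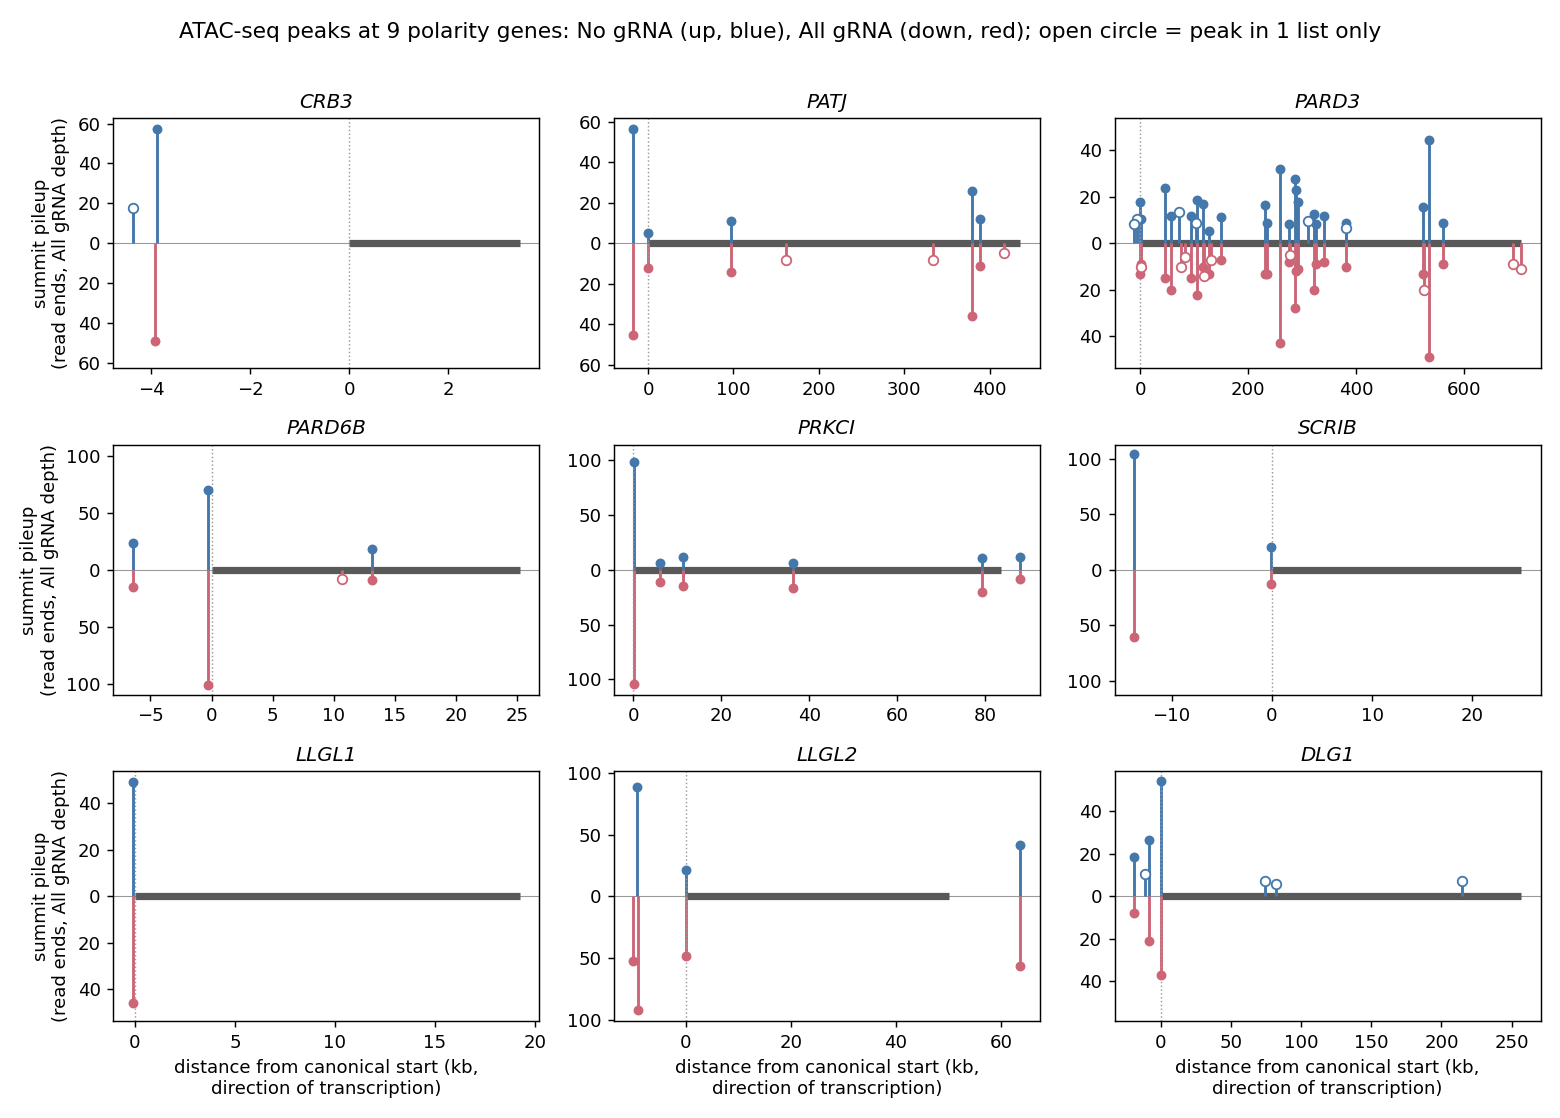
Peaks of the 9 genes by distance from the canonical start in kb, in the direction of transcription, with height as summit pileup at the All gRNA depth (No gRNA upward in blue, All gRNA downward in red); the bar is the gene body and open circles are peaks in 1 list only. Open circles lie mostly along PARD3, PATJ and DLG1, and the CRB3 body is empty in both libraries.

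In the Scribble complex, LLGL2 (ENSG00000073350.14, chromosome 17, 75525080 to 75575209, plus strand, 22 starts) encodes one of the lethal giant larvae scaffolds that hold the basolateral face. Its start-site peak, with a summit in a UTR exon 23 bp after the canonical start, had a pileup of 29 with No gRNA and 48 with All gRNA. Height was 2.23-fold higher with All gRNA (1.38 to 3.66), and the peak was called. Its width went from 604 to 672 bp and its −log10 q from 26.0 to 45.4, although the All gRNA library was the shallower. The strongest No gRNA peak, 9156 bp before the start and 5 bp from the start of TSEN54, had a pileup of 119 and overlapped 2 All gRNA peaks with pileups of 52 and 92. The peak 63638 bp after the start, outside the gene and 1006 bp from the start of MYO15B, had a pileup of 56 in each library and a ratio of 1.35 (0.912 to 1.98). LLGL2 had no peak in 1 list only, and neither of its 2 pairs had a ratio below 1.

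LLGL1 (ENSG00000131899.12, chromosome 17, 18225635 to 18244875, plus strand, 2 starts), the other mammalian lethal giant larvae scaffold, had 1 peak in each list, at its start. The pileup was 66 in No gRNA and 46 in All gRNA, with a ratio of 0.938 (0.629 to 1.39), and the width was 417 and 483 bp. The interval of the ratio overlapped that of LLGL2, and the difference between the paralogs was not tested. The RefSeq promoter of LLGL1 held neither CAGGTG nor CAGCTG.

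DLG1 (ENSG00000075711.21, chromosome 3, 197042560 to 197299330, minus strand, 56 starts) encodes a membrane-associated guanylate kinase scaffold. Its covered length was lower by a larger share than at any other of the 9 genes, at 2990 and 1734 bp (58.0%), and all 3 of its pairs were lower and narrower in All gRNA. Its start-site peak had a pileup of 73 with No gRNA and 37 with All gRNA, with a ratio of 0.682 (0.446 to 1.03). The peak 7993 bp before the start had pileups of 36 and 21 (0.785, 0.435 to 1.38). The peak 18898 bp before the start had 25 and 8 and was called lower, with a ratio of 0.431 (0.168 to 0.985). With pileups scaled by the median ratio of all shared peaks in place of depth this call was lost, at 0.464 (0.181 to 1.06). A further 4 DLG1 peaks, with pileups of 10, 8, 10 and 14 and −log10 q from 4.42 to 7.55, were in No gRNA only, and 0 were in All gRNA only. Of 5 RefSeq promoters of DLG1, 1 held CAGGTG. The bases around the No gRNA summit of the called peak are shown on the plus strand of hg38, with the 1 TGACTCA in capitals:
DLG1, chr3:197317410-197317610: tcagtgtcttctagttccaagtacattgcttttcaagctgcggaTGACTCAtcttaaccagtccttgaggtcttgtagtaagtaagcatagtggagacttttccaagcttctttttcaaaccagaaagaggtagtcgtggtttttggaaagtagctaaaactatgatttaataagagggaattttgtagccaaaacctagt

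Across the 9 genes, 11 of the 58 peaks with No gRNA (19.0%, exact binomial interval 9.87 to 31.4) and 13 of the 61 with All gRNA (21.3%, 11.9 to 33.7) overlapped no peak of the other list. Over all peaks the shares were 24.7% and 23.8%, inside both intervals. With both lists held to a −log10 q of 10 or more, the numbers were 16 of 41 and 4 of 30. The median −log10 q over all peaks was 13.7 with No gRNA and 10.1 with All gRNA. The share over all peaks at this limit was not computed, so 16 and 4 have no background. The 11 and 13 peaks were low, with a median pileup of 12 with No gRNA and 8 with All gRNA where the peaks of the same genes with a partner had 24 and 15. Of the 11, 7 lay in introns, and of the 13, 12 did. Scaled to the depth of the other library, all 11 and all 13 would have stood above the lowest pileup callable there, by amounts that counting error can cover for the weakest (6.73 against 5). For the 13 this was close to given, since the No gRNA library was the deeper and the scaling raised their pileups. It does not show whether a site was closed in the other library.

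The share of these peaks with the ZEB1 E-box near the summit was close to that over all peaks. CAGGTG or CACCTG lay within 100 bp of the summit in 7 of the 58 peaks with No gRNA (12.1%, 4.99 to 23.3) and 10 of the 61 with All gRNA (16.4%, 8.15 to 28.1). Of all peaks 11.6% and 13.1% did, inside these intervals. Among start-site peaks it lay near the summit in both lists at PATJ and PARD6B, in All gRNA alone at LLGL2 and in No gRNA alone at DLG1. At LLGL2 and DLG1 the peaks of both lists overlapped, and only the summits differed. They lay 23 bp (No gRNA) and 45 bp (All gRNA) after the LLGL2 start, and 326 and 340 bp after the DLG1 start. The windows read thus differed while the DNA was the same, which also enters the counts of 7 and 10. The start-site peaks of PARD3, PRKCI, SCRIB and LLGL1 had it in neither list. The comparison E-box CAGCTG, which reads the same on both strands, was found in 15.5% and 16.4%, against 12.4% and 12% of all peaks. TGACTCA or TGAGTCA was found in 27.6% and 26.2%, against 23.5% and 24.3%, and these letters were added after the sequences had been seen. Matches of different motifs can share end bases. Among peaks in 1 list only, 0 of 11 in No gRNA and 4 of 13 in All gRNA held CAGGTG near the summit, the latter at PARD3 and PARD6B, where the shares over all such peaks were 11.7% and 16.4%. A match of letters is a description and no evidence of binding.

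SCRIB (ENSG00000180900.20, chromosome 8, 143790920 to 143815773, minus strand, 9 starts), the scaffold that gives the complex its name, had 2 peaks in each list, both shared, lower and narrower in All gRNA. Its start-site peak had a pileup of 28 with No gRNA and 13 with All gRNA, with a ratio of 0.625 (0.297 to 1.25). Its strongest peak, 13746 bp before the start and 1 bp from the start of a long non-coding RNA (ENSG00000287222), had a pileup of 140 with No gRNA and 60 with All gRNA. Its ratio of 0.577 (0.419 to 0.786) excluded 1 and was within 2-fold, so it was not called.

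Among 30 other polarity genes (further Crumbs, PAR, DLG, LIN7 and MARK family members and their regulators, with the small GTPases CDC42 and RAC1), 27 had a start-site peak in both libraries, 0 in the No gRNA list alone, 1 in the All gRNA list alone and 2 (CRB2 and TIAM1) in neither. Over all protein-coding genes these shares were 65.4%, 2.61%, 1.82% and 30.1%. The gene with a peak in All gRNA only was CRB1, a paralog of CRB3, at an internal start, with a pileup of 7 and a −log10 q of 4.97. Of 20 start-site pairs 4 were higher and 16 lower in All gRNA. Their median log2 ratio of −0.23 was close to the −0.22 over all 9723 start-site pairs, whose share below 1 was not computed. Of the 20 pairs 0 were called, where 0.576% of all start-site pairs were called higher and 2.45% lower. The ratios ran from 0.574 (0.451 to 0.724) at PALS1, the scaffold between CRB3 and PATJ, with pileups of 244 and 104, to 1.28 (0.916 to 1.78) at ERBIN, with 78 and 74. These genes at the ends of the range were chosen after their values were seen.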

How the data were processed

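ATAC-seq peak lists of 2 samples were used, 1 No gRNA and 1 All gRNA. Per the study's methods and the labels, the authors used fastp for trimming and bowtie2 for mapping to hg38, discarded duplicates and reads on the mitochondrial genome or the ENCODE exclusion list, and ran MACS2 separately for each library without a control (extension 150 bp, shift 75 bp upstream). The deposited values are a fold enrichment (a ratio), a −log10 p, a −log10 q and a score, which was not used. Library totals are not given. The pileup and background of each peak were solved from the deposited fold and −log10 p, which succeeded for 100% of peaks of both lists, and the ratio of the lowest backgrounds (0.651816 and 0.484375) gave the depth, about 8.80e+06 and 6.54e+06 read ends for the 200 bp window that fits the lists. How often both ends of 1 fragment were counted was not measured here, and where they were, the intervals are too narrow.

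Genes came from GENCODE release 44 on hg38, and peak ends lay within the hg38 lengths of every chromosome used. Peaks overlapping by at least 1 bp were shared. Ratios have exact conditional (Clopper-Pearson) intervals, pileups exact Poisson and shares exact binomial (Clopper-Pearson) ones. RefSeq promoters (GRCh38.p14) were used for CRB3, PATJ, PRKCI, LLGL1 and DLG1, 5 of the 9 genes by symbol. Scripts used Python 3.11.15, numpy 2.4.6, pandas 2.3.3 and SciPy 1.17.1, and were tested on simulated data. Members, lists and rules were chosen with earlier results of these data known. Named peaks were those within 1 kb of the canonical start, those in 1 list only with −log10 q of at least 10, the called pairs, and the strongest peak and strongest one-library peak of each gene, and other peaks are given as context; of the other polarity genes, those with a start-site peak in 1 list only or called. The alternatives are in the closing section.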

Additional observations from a re-analysis of the deposited data

How the results depend on the processing

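No paired analysis was possible because there was 1 library a group. Of 85 alternatives 23 moved a value and 62 did not. A move was over 1.5 times for counts and lengths, and outside the interval for shares and ratios. For the median log2 ratio it was outside −0.331 to 0.329. That interval came from the ranks of the paired ratios and treats pairs as independent draws. It is wide, and no alternative median left it. Which library was higher changed with the setting. Peaks numbered 58 in No gRNA and 61 in All gRNA, but 55 and 52 with a −log10 q of 5 or more in both lists, and 41 and 30 (19124 and 14399 bp) with 10 or more. Peaks in 1 list only went from 11 and 13 to 14 and 10 and to 16 and 4 at these limits, and to 3 and 2 with a limit of 10 in the counted list alone. The shares over all peaks at these limits were not computed. Covered length in All gRNA ranged from 75.3% of that in No gRNA, at the limit of 10 in both lists, to 107.5% in the gene bodies alone, where 7 and 13 peaks were in 1 list only. It was 101.0% with 10 kb around starts. Peaks both in the body and within 20 kb of a start numbered 23 in No gRNA (9789 bp, 4 in 1 list only) and 24 in All gRNA (9981 bp, 5). Within 20 kb of the canonical start there were 23 (12424 bp, 4) and 22 (11010 bp, 2). With an overlap of 50% of both peaks required, 16 and 19 were in 1 list only. The shares in 1 list only were not computed over all peaks for these regions or this overlap rule. These numbers therefore have no background. Calls of higher and lower height were 2 and 0 with median-ratio scaling, 2 and 2 beyond 1.5-fold, and 3 and 2 with no minimum fold. With no minimum fold, 12.3% of all pairs were called in either direction. The shares of all pairs called with median-ratio scaling or beyond 1.5-fold were not computed. The share with CAGGTG was 5.17% in No gRNA and 9.84% in All gRNA within 50 bp of the summit, and 22.4% and 32.8% over the whole peak, against 23.3% of all peaks in each list. Other polarity genes with an All gRNA only start-site peak were 2 within 4 kb, CRB1 and CRB2. The median log2 ratio of shared peaks, −0.01, had no settled sign: it was −0.10 to 0.03 when each gene was left out in turn, 0.10 with median-ratio scaling and −0.16 with the authors' fold. Apart from the smaller regions and lists themselves, the causes were not tested. Ratios had wide intervals where pileups were under about 10, and the part of depth in the changes above was not tested.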
